A study of Mus musculus with 16 samples.

Results

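The inflammasome and the IL-1 family were followed through 9 genes in the kidneys of lupus-prone and control mice: the sensor Nlrp3, the adaptor Pycard, the proteases Casp1 and Casp4, the pore protein Gsdmd, the cytokines Il1b, Il18 and Il33, and the receptor antagonist Il1rn. They were chosen by name, as all probes of the array whose accession is a transcript of one of these genes, and are 9 of the 22911 gene symbols the array covers. The 9 genes had 13 probes, and where a gene had 2, the brighter was used. Whole kidneys of 16 mice, all labelled 6 months old, were measured on one-color Agilent arrays, 1 mouse per array and 4 mice per genotype, to ask how STING takes part in the disease of Fcgr2b-deficient mice. The groups were wild-type on C57BL/6, Fcgr2b-/- (labelled lupus mouse) on 129/C57BL/6, Fcgr2b-/-.Sting gt/gt (double-deficient) on 129/C57BL/6, and Sting gt/gt on C57BL/6. Fcgr2b codes for the inhibitory Fc receptor of B cells and myeloid cells, and the Goldenticket allele gt acts as a functional knockout of the cytosolic DNA signaling adaptor STING. Both alleles are carried by every cell of the mouse, and the strain background changes together with the Fcgr2b genotype, so the pair cannot be told apart. A legend of the study names the lupus animals of the kidney arrays as Sting wt/gt, whereas their array labels give the Fcgr2b deletion alone.

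An inflammasome is a protein platform that assembles when a sensor such as NLRP3 meets a danger signal and, through the adaptor ASC (gene Pycard), brings together molecules of caspase-1. Active caspase-1 cleaves pro-IL-1β and pro-IL-18 into their secreted forms and opens gasdermin D into a membrane pore, and caspase-11 (gene Casp4 in the mouse) opens the same pore when it binds bacterial lipopolysaccharide inside the cell. In the kidney, IL-1β comes mainly from infiltrating myeloid cells, whereas IL-18 is also made by tubular epithelium and IL-33 is stored in nuclei of stromal and endothelial cells. The IL-1 receptor antagonist occupies the IL-1 receptor without signaling. Most of this control acts on proteins, which arrays of RNA do not measure.

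The promoters of the genes on which the results below turn, Il1rn and Il1b, are shown with that of Casp4, which alone among the members held more than 1 separate kappaB consensus match. The windows run from 250 bases before to 50 bases after a start site of RefSeq (GRCm38.p6), 5′ to 3′ on the strand of the gene, and capitals mark matches, on either strand, to the kappaB consensus bound by NF-kB, GAAANNGAA (bound by interferon regulatory factors), TTCNNNGAA (a STAT element), GAGGAA (the core recognized by the myeloid factor PU.1), the TATA box, whose letters are given with Il1b below, and, for the stress-responsive factor AP-1, TGAGTCA. The windows are the upstream Il1rn start at chr2:24336610-24336909 (plus strand), a downstream Il1rn start at chr2:24345121-24345420 (plus strand), Il1b at chr2:129371090-129371389 (minus strand) and Casp4 at chr9:5308599-5308898 (plus strand).
Il1rn upstream: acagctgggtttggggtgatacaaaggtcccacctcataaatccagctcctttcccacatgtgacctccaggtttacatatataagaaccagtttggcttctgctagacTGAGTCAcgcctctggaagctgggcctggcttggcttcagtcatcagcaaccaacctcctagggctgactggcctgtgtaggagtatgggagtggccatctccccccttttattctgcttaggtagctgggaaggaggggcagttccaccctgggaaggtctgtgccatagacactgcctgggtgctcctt
Il1rn downstream: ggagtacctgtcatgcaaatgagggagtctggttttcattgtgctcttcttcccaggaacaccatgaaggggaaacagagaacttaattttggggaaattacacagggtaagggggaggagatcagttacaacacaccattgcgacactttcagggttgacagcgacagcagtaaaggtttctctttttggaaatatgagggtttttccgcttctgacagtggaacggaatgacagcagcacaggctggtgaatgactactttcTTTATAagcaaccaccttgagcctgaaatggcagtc
Il1b: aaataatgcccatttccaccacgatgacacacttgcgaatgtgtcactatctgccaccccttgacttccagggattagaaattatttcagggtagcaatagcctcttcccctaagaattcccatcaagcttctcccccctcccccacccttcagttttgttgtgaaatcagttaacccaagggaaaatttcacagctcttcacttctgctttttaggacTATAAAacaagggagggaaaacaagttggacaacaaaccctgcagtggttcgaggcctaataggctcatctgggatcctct
Casp4: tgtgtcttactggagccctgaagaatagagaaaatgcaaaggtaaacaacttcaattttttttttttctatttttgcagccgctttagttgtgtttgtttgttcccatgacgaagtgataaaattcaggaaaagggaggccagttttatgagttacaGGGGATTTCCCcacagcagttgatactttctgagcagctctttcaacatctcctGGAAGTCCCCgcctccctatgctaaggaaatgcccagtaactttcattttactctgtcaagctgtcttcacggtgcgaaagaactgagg
The upstream Il1rn window held 1 AP-1 match, and 5.2% of all 32851 RefSeq promoter windows of 300 bases held one. Il1b held a TATA box 31 bases before its start (TATAAA on either strand is in 13.6% of all windows). In Casp4 the kappaB consensus matched at GGGGATTTCC, at GGGATTTCCC, which overlaps it, and at GGAAGTCCCC, and 8.46% of all windows held a match. Across the 13 windows of 8 members, PU.1 cores stood in those of 4 members (28.3% of all windows), and neither the interferon factor element (8.56% of all windows) nor the STAT element (8.3%) was found in any. A match is a description of letters and not evidence of binding.

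Levels are given as log2 of the processed spot signal minus the 75th percentile of the array, so 0 is the 75th percentile of that array and 1 unit is a 2-fold difference. A probe counts as measured on an array where the scanner software placed it well above background. The arrays had 28441 to 35564 probes well above background. Fcgr2b itself was between 1.14 and 2.13 in the 4 wild-type kidneys and between -0.40 and 0.70 in the 8 kidneys of both Fcgr2b-deficient groups. In the Sting gt/gt kidneys it was between -0.19 and 1.54, which reaches into the deficient range. The Sting1 ranges of all groups overlapped. All 5 proximal tubule markers were well above background on all 16 arrays. Xist, the transcript of the inactive X chromosome, was above background on 10 arrays and not on 6, which fell into every genotype. The kidneys of a genotype are separate mice, but fewer cells of a type and less RNA per cell cannot be told apart in whole kidney.

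In Fcgr2b-/- kidneys all 9 members had a higher mean level than in wild-type kidneys, as did 43.4% of all tested probes, and in double-deficient kidneys 8 of the 9 had a lower mean than in Fcgr2b-/- kidneys, as did 42.5% of all tested probes. The distance was longest for Il1rn and Il1b and shortest for Il18 and Nlrp3. The first rank of Il1rn against wild-type rests on wild-type readings that were all below detection. With those set to the lowest signal above background, Il1rn was 2.82 higher in Fcgr2b-/- than in wild-type, less than Il1b at 3.20. No member passed the test, which required a limma adjusted p under 0.05 over 35628 probes and at least a 2-fold change. Of all tested probes, 0.0505% were called in Fcgr2b-/- against wild-type. In each remaining comparison (double-deficient with either Fcgr2b-/- or wild-type, Sting gt/gt with wild-type, and the interaction) 0.0% were. At an unadjusted limma p under 0.05, 4 members were higher in Fcgr2b-/- than in wild-type (Casp1, Gsdmd, Il1b and Il1rn), where 2.64% of all probes were. The median log2 change of all 9 members was 1.30, beside -0.055 over all probes. From Fcgr2b-/- to double-deficient, 2 members, Il1b and Il1rn, were lower at this unadjusted level, where 1.16% of all probes were, and the median of all 9 members was -0.84 beside 0.055 over all probes. In double-deficient against wild-type 1 member, Il1rn, was higher at that level (0.298% of all probes), and in the interaction no member reached it (6.27% of all probes, in either direction). The comparisons share the Fcgr2b-/- and the wild-type arrays. Within slide 2, which held 1 Fcgr2b-/- and 3 double-deficient arrays, 7 of the 9 members had the opposite sign in double-deficient against Fcgr2b-/-, whereas Il1b (-0.81) and Il1rn (-0.25) kept theirs. With slide as a block, Il1b was -1.34 in place of -2.03 and Il1rn -2.17 in place of -2.37 in this comparison.

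**Figure D1:**
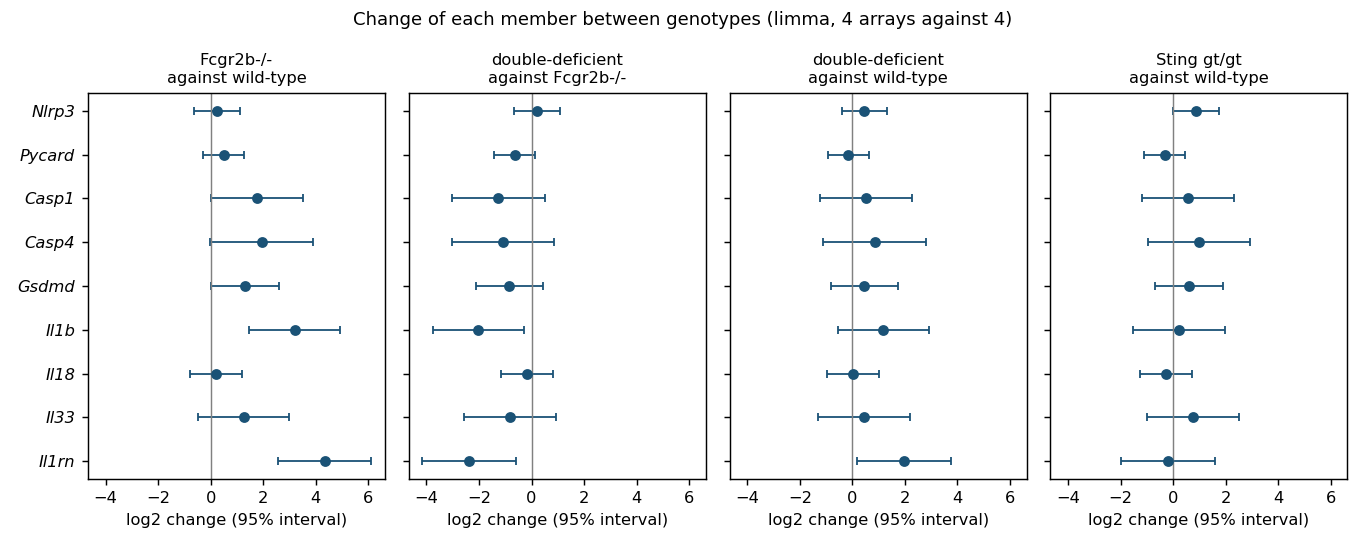
Log2 change of each of the 9 members (x axis; points, with 95% intervals of the limma fit) in the 4 comparisons of genotypes, 4 arrays against 4. In Fcgr2b-/- against wild-type all points lie right of 0. Il1rn is farthest, at 4.33, with all its wild-type readings below detection. In Sting gt/gt against wild-type the points lie from -0.32 to 0.99.

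As read, with many readings below detection, Il1rn, the IL-1 receptor antagonist, had the longest distance between genotype means. It read -6.41, -6.72, -6.47 and -5.48 in wild-type replicates 1 to 4 and -5.56, -7.15, -6.61 and -6.61 in Sting gt/gt replicates 1 to 4, and it was not well above background on any of these 8 arrays. In Fcgr2b-/- replicates 1 to 4 it was 0.92, -4.01, -3.96 and -0.70, and in double-deficient replicates 1 to 4 it was -4.61, -3.82, -4.45 and -4.37, and it was measured on 3 of 4 arrays in either group. The readings of all 8 Fcgr2b-deficient kidneys were above those of the 8 wild-type and Sting gt/gt kidneys, as were 0.0589% of all tested probes, the nearest pair being -4.61 in double-deficient replicate 1 and -5.48 in wild-type replicate 4. The probe passed the filter for testing, well above background on at least 4 arrays, only through the Fcgr2b-deficient groups. The share of all tested probes is therefore no support for this order. This order rests on readings below detection: the lowest signal that counted as above background was up to -4.28 on the wild-type and Sting gt/gt arrays, higher than 3 of the double-deficient readings.

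Against wild-type, Il1rn was 4.33 higher in Fcgr2b-/- on the log2 scale (SE 0.84, limma adjusted p = 0.133), a fold of 7.07 when each wild-type array is set to the lowest signal that counts as above background on it. In double-deficient kidneys it was 1.96 higher than in wild-type (SE 0.84, limma adjusted p = 0.99999), a fold of 1.37 by the same rule. In either group the 1 array not above background kept its own reading, so these folds are not strict minima. Both Fcgr2b-deficient groups against both others, a contrast formed after the Il1rn values were seen, gave 3.25 (SE 0.59, limma adjusted p = 0.0808), and 0.0674% of probes were called. This contrast restates the pattern that prompted it and is given as a description. For the same reason its limma adjusted p is no measure of support in any setting. That p was 0.0299, 0.0172 and 0.0180 without Fcgr2b-/- replicate 1, 2 or 3, and 0.0438 and 0.0279 with quantile normalization or scaling by the array median. Without Fcgr2b-/- replicate 2 or 3, the comparison with wild-type alone passed the test (log2 change 5.02 and 5.01, limma adjusted p = 0.0295 and 0.0356). Replicates 2 and 3 held the lowest Fcgr2b-/- readings, and the probe was tested only through the Fcgr2b-deficient groups. These adjusted p-values are therefore no support. With normexp background correction, which adds an offset to dim spots, the change between Fcgr2b-/- and wild-type was 1.77 (adjusted p = 0.773) and that of the wider contrast 1.03 (adjusted p = 0.99996).

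Between Fcgr2b-/- and double-deficient kidneys the Il1rn difference was -2.37 (SE 0.84, limma adjusted p = 0.9999), and the groups overlapped, because Fcgr2b-/- replicates 2 and 3 were at the level of the double-deficient kidneys. Without Fcgr2b-/- replicate 1 the difference was -1.42. Within slide 1, which held 3 of the Fcgr2b-/- arrays, the change against wild-type was 5.30, and within slide 2, which held 1, it was 2.02. A further Il1rn probe was well above background on 2 arrays alone, Fcgr2b-/- replicates 1 and 4, and was not tested. Its mean readings differed by 1.79 between Fcgr2b-/- and wild-type and by -0.067 between double-deficient and wild-type, and the readings of the 8 Fcgr2b-deficient kidneys overlapped those of the 8 others.

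**Figure D2:**
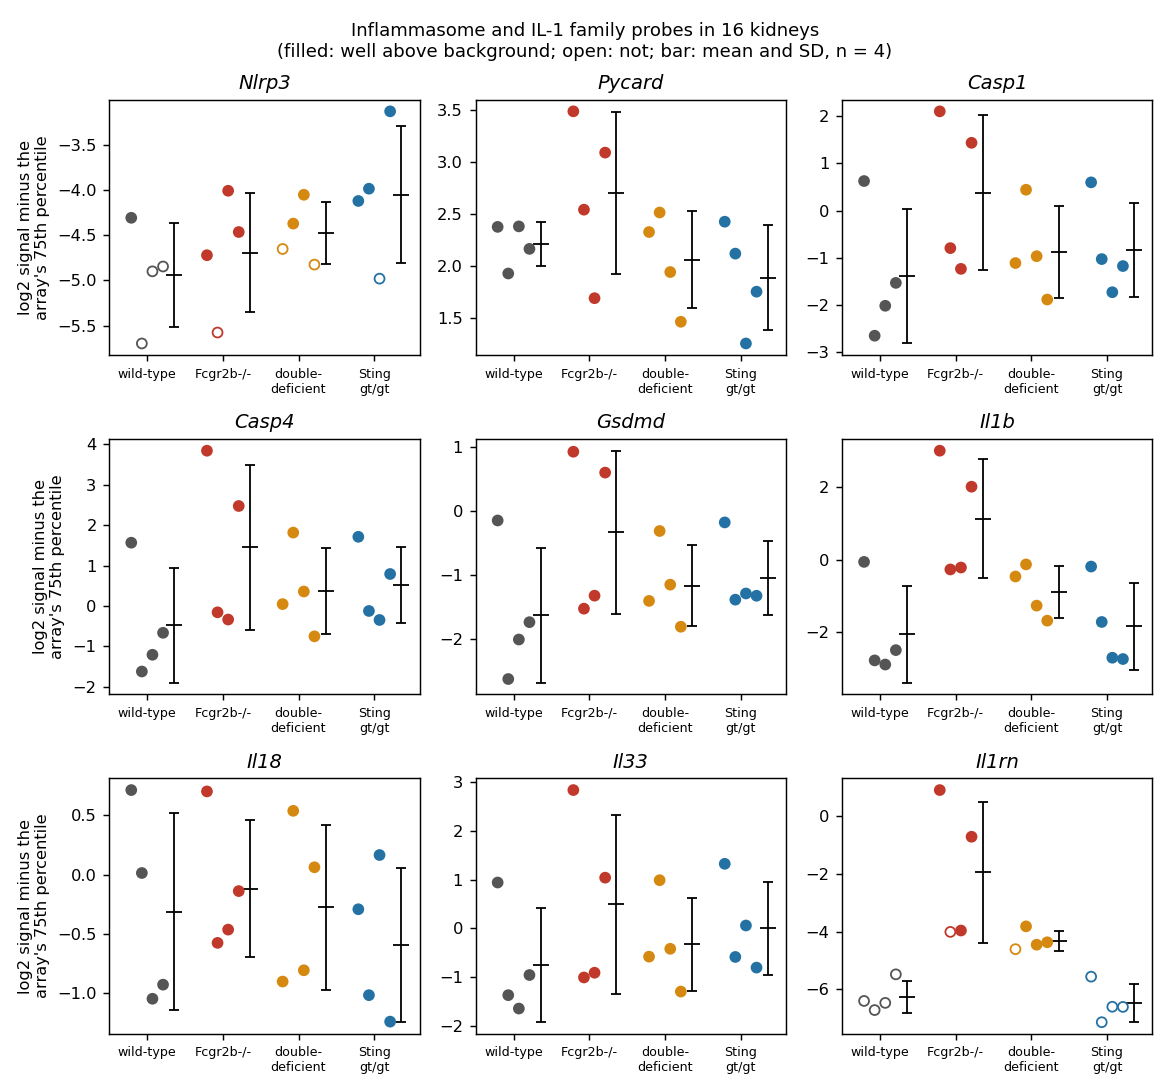
Level of each member in every kidney (y axis, log2 signal minus the 75th percentile of the array; points in replicate order within genotype, filled where well above background and open where not; bars are mean and SD, n = 4). For Il1rn the 8 Fcgr2b-deficient kidneys read -4.61 or more and the 8 others, all below detection, -5.48 or less. Fcgr2b-/- replicate 2 and double-deficient replicate 1 were also below detection for Il1rn. For most members Fcgr2b-/- replicates 1 and 4 stand above replicates 2 and 3.

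Il1b codes for IL-1β, the cytokine that Il1rn opposes. Its level was -0.062, -2.79, -2.91 and -2.51 in wild-type replicates 1 to 4 and 3.02, -0.27, -0.22 and 2.02 in Fcgr2b-/- replicates 1 to 4. It was -0.47, -0.13, -1.27 and -1.69 in double-deficient replicates and -0.19, -1.73, -2.72 and -2.75 in Sting gt/gt replicates. Wild-type replicate 1 lay within the Fcgr2b-/- range, and without it the lowest Fcgr2b-/- kidney was above every wild-type one. The change in Fcgr2b-/- against wild-type was 3.20 (SE 0.82, limma adjusted p = 0.532), in double-deficient against Fcgr2b-/- -2.03 (SE 0.82, limma adjusted p = 0.9999), and in double-deficient against wild-type 1.18 (95% interval -0.56 to 2.91). In Sting gt/gt against wild-type it was 0.22 (95% interval -1.52 to 1.95). The genotypes stood in the order wild-type, Sting gt/gt, double-deficient, Fcgr2b-/- with means of -2.07 ± 1.35, -1.85 ± 1.20, -0.89 ± 0.72 and 1.14 ± 1.65 (SD, n = 4), and neither Sting gt/gt and wild-type nor Fcgr2b-/- and double-deficient differed by the adjusted test, while the middle pair was not tested. The interaction, which asks whether loss of STING acted differently with and without Fcgr2b, was -2.25 (SE 1.15, limma adjusted p = 0.661) for Il1b and -2.16 (SE 1.19, limma adjusted p = 0.661) for Il1rn. The dimmer Il1b probe followed the brighter one over the 16 arrays (Pearson r = 0.98) and gave 3.07 in Fcgr2b-/- against wild-type.

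Nlrp3, the sensor, lay at the edge of detection. It was measured on 1 wild-type, 3 Fcgr2b-/-, 2 double-deficient and 3 Sting gt/gt arrays, and all its levels lay between -5.69 and -3.13. Sting gt/gt kidneys read -4.12, -3.99, -4.98 and -3.13 in replicates 1 to 4, and wild-type kidneys -4.31, -5.69, -4.90 and -4.85. These ranges overlapped, with Sting gt/gt replicate 4 the highest of all 16 kidneys. The change was 0.88 (SE 0.41, limma adjusted p = 0.732), the sole member at an unadjusted p under 0.05 in this comparison, where 1.84% of all probes were higher at that level. In Fcgr2b-/- against wild-type the change of Nlrp3 was 0.24 (95% interval -0.63 to 1.12).

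Pycard, the adaptor that links sensor and caspase, was bright on all 16 arrays. Wild-type kidneys held close together at 2.38, 1.93, 2.38 and 2.17, whereas Fcgr2b-/- kidneys were at 3.49, 2.55, 1.69 and 3.09. The latter spread above and below the former. The change was 0.49 (95% interval -0.30 to 1.27) and from Fcgr2b-/- to double-deficient -0.64 (95% interval -1.43 to 0.15), or 0.23 and -0.38 without Fcgr2b-/- replicate 1. In double-deficient and Sting gt/gt kidneys Pycard ranged from 1.47 to 2.52 and from 1.26 to 2.43.

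Casp1, the protease that matures IL-1β and IL-18, was 0.63, -2.66, -2.02 and -1.54 in wild-type replicates 1 to 4 and 2.10, -0.80, -1.24 and 1.44 in Fcgr2b-/- replicates 1 to 4. Casp4, the sensor protease for intracellular lipopolysaccharide, was 1.56, -1.63, -1.21 and -0.67 and then 3.84, -0.16, -0.34 and 2.47 in the same kidneys. Gsdmd, the pore protein that both proteases cleave, was -0.15, -2.63, -2.01 and -1.74 and then 0.93, -1.53, -1.32 and 0.60. In all 3 genes wild-type replicate 1 stood above Fcgr2b-/- replicates 2 and 3, and the other wild-type kidneys stood below all Fcgr2b-/- kidneys. The changes were 1.77 for Casp1 (SE 0.83), 1.94 for Casp4 (SE 0.92) and 1.30 for Gsdmd (SE 0.61), with a limma adjusted p of 0.9996 for each. In double-deficient kidneys Casp1 ranged from -1.89 to 0.44, Casp4 from -0.75 to 1.82 and Gsdmd from -1.81 to -0.31, and each range crossed that of Fcgr2b-/-. The double-deficient means were -0.88, 0.37 and -1.17. Those of Sting gt/gt kidneys were slightly higher, at -0.84, 0.51 and -1.04, and those of wild-type were -1.40, -0.48 and -1.63. Double-deficient minus Fcgr2b-/- was -1.26 for Casp1 (95% interval -3.02 to 0.50), -1.09 for Casp4 (-3.04 to 0.86) and -0.84 for Gsdmd (-2.13 to 0.45). Without Fcgr2b-/- replicate 1 these differences were -0.68, -0.29 and -0.42, and those from wild-type to Fcgr2b-/- were 1.20, 1.14 and 0.88. The dimmer Gsdmd probe had r = 0.93 with the brighter.

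Il33, an alarmin released from damaged cells, read 0.94, -1.37, -1.65 and -0.96 in wild-type, 2.84, -1.01, -0.91 and 1.04 in Fcgr2b-/-, -0.58, 0.99, -0.42 and -1.30 in double-deficient and 1.32, -0.59, 0.06 and -0.81 in Sting gt/gt replicates 1 to 4. Every genotype had at least 1 kidney at or above 0.94 and at least 1 below -0.80, and all ranges overlapped. Fcgr2b-/- against wild-type gave 1.25 (95% interval -0.49 to 2.99), and both Il33 probes gave a like value (r = 0.95, change 1.17 by the dimmer). Without Fcgr2b-/- replicate 1 it was 0.47, and the difference between double-deficient and Fcgr2b-/- kidneys was -0.035 in place of -0.82.

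Il33 went with Casp1, Casp4 and Gsdmd from kidney to kidney. Over the 16 arrays, which share genotypes and slides, the 6 pairs among these 4 genes had Pearson r of 0.93 to 0.98 and Spearman rho of 0.84 to 0.95. After genotype means were removed r was 0.93 to 0.98, and it was 0.87 to 0.97 when Fcgr2b-/- replicate 1 and wild-type replicate 1 were left out as well. The likeness was thus as close within genotypes as across them. It was not particular to these 4 genes. Il1b had r of 0.80 to 0.90 with them, and 0.91 to 0.95 after genotype means were removed. Genes outside the family were as close, such as Gngt2 with Casp1 (r = 0.99). Il18 had r of -0.28 to 0.66 and Nlrp3 of -0.28 to 0.36 with the other members.

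Il18, whose product also needs caspase-1, had genotype means that differed by less than the spread within a genotype, at -0.31 ± 0.83 in wild-type, -0.12 ± 0.58 in Fcgr2b-/-, -0.28 ± 0.69 in double-deficient and -0.60 ± 0.65 in Sting gt/gt (SD, n = 4). Fcgr2b-/- against wild-type was 0.19 (95% interval -0.79 to 1.18). The spread within 3 genotypes went with Xist. On the 6 arrays without Xist above background Il18 was -0.46 to 0.71 (median 0.11), and on the 10 with it -1.24 to 0.70 (median -0.85). In wild-type the pair without Xist was 0.71 and 0.013 and the pair with it -1.05 and -0.93, and in double-deficient the pairs were 0.54 and 0.061 against -0.90 and -0.81. In Sting gt/gt the single array without Xist was at 0.16 and the others between -1.24 and -0.29. Every array without Xist was thus above every array with it in 3 genotypes, but in Fcgr2b-/- the array without Xist, at -0.46, lay between -0.57 and 0.70. The labels give no sex, this split was noticed in the values, and its part in the result was not tested. With Xist detection as a covariate, no member was called in any comparison.

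**Figure D3:**
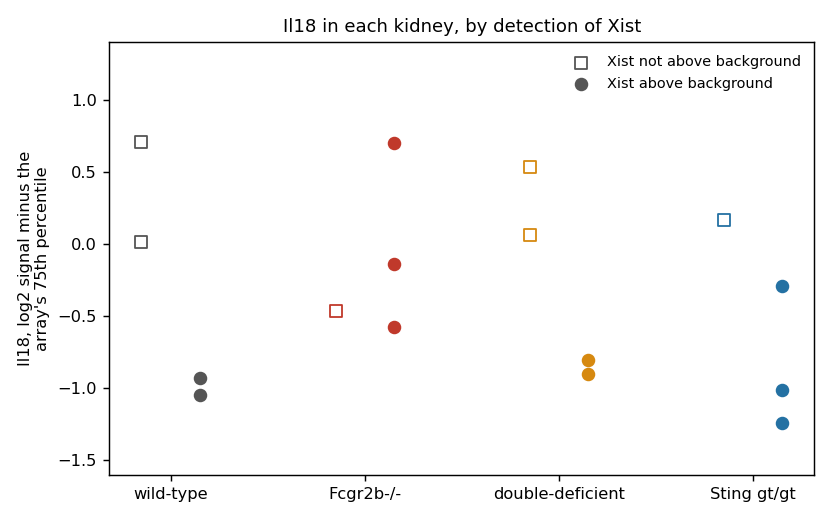
Il18 level in each kidney (y axis, log2 signal minus the 75th percentile of the array) by genotype, with open squares for arrays on which Xist was not above background and filled circles for those on which it was. Squares lie above circles in wild-type, double-deficient and Sting gt/gt kidneys and not in Fcgr2b-/- kidneys, where the square is at -0.46.

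The Fcgr2b-/- group was split for nearly all members. Replicates 1 and 4 lay above replicates 2 and 3 for 8 of the 9 members, the exception being Nlrp3, where 22% of all probes did, and replicate 1 was the highest of all 16 kidneys for 7, where 13.9% of all probes were. These kidneys also held the most signal of macrophage markers. The 6 macrophage markers (Adgre1, Csf1r, Cd68, C1qa, C1qb and C1qc) were above background on all 16 arrays, and their mean log2 level ranged from 0.34 to 1.98 in wild-type, 1.93 to 4.18 in Fcgr2b-/-, 1.30 to 2.15 in double-deficient and 0.71 to 2.26 in Sting gt/gt. In Fcgr2b-/- replicates 1 and 4 it was 4.15 and 4.18, and in replicates 2 and 3 it was 2.12 and 1.93. All 6 were higher in Fcgr2b-/- than in wild-type (median 2.26) and all 6 lower in double-deficient than in Fcgr2b-/- (median -1.54). The mean of 8 neutrophil markers was -3.20 to -1.75 in wild-type and -2.69 to -0.53 in Fcgr2b-/-, with Ngp above background on no array. Monocyte markers were 1.42 to 3.23 in wild-type and 2.23 to 4.16 in Fcgr2b-/-, and 3 of the 5 were higher. T cell markers averaged 0.69 and -0.056 in Fcgr2b-/- replicates 1 and 4, the highest of all kidneys, and 4 of the 5 were higher in Fcgr2b-/- than in wild-type. All 5 proximal tubule markers had a lower group mean in Fcgr2b-/- than in wild-type (median -0.51), with 4.88 in Fcgr2b-/- replicate 1 the lowest of all 16 kidneys. Replicate 4 was at 6.20, whereas Fcgr2b-/- replicates 2 and 3, at 7.05 and 7.06, lay within the wild-type range of 6.30 to 7.19. The part of any of these cells in the levels of the members was not tested.

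Wild-type replicate 1 stood apart from its group. It was above the other wild-type kidneys for 7 of the 9 members, where 43.2% of all probes were, by 0.54 for Nlrp3 to 2.44 for Il1b. Fat markers (Adipoq, Plin1, Cidec, Lep and Fabp4) averaged 2.31 in it and -1.48 to -0.54 in the other wild-type kidneys, 1.71 in Fcgr2b-/- replicate 1 and 1.14 in Sting gt/gt replicate 1. This kidney was set apart on the values of these same members. The counts without it follow in part from that choice and are a description, and the shares over all probes are no fair measure for them. Without wild-type replicate 1, all Fcgr2b-/- kidneys lay above all wild-type kidneys for 5 members (Casp1, Casp4, Gsdmd, Il1b and Il1rn), where 2.65% of all probes did. Double-deficient kidneys did so for 3 members (Nlrp3, Il1b and Il1rn; 2.85% of all probes) and Sting gt/gt kidneys for 3 (Casp4, Gsdmd and Il33; 8.14%). For Nlrp3 and Il1rn these wild-type readings were all below detection. Without it, still no member passed the adjusted test in these 3 comparisons.

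**Figure D4:**
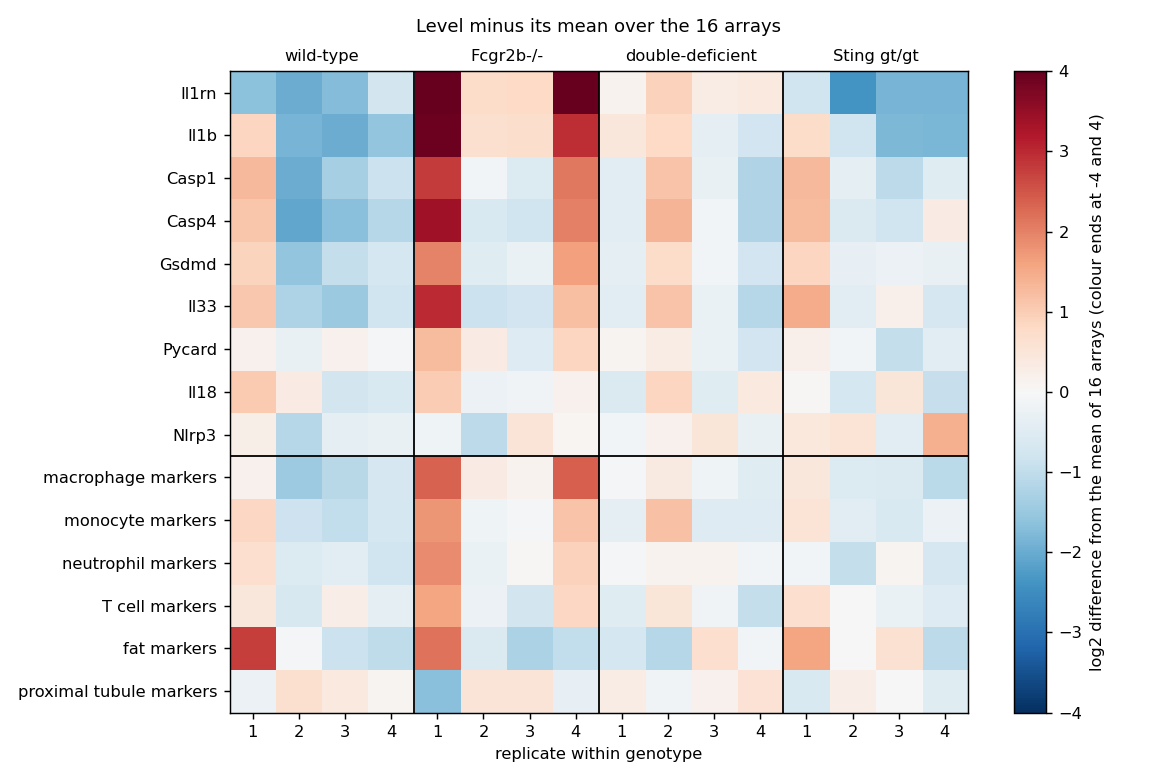
Each row is a member (upper block) or the mean of a marker list (lower block), each column a kidney, and color is the log2 difference from the mean of that row over the 16 arrays (ends at -4 and 4). Fcgr2b-/- replicates 1 and 4 are the reddest columns for most members and in the macrophage row, and wild-type replicate 1 is red for Casp1, Casp4, Gsdmd, Il33 and the fat row, but not for Il1rn.

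The genes most like each member were sought among 16382 named genes by Pearson r over the 16 arrays, as a description. For Casp1 these were Gngt2, Ly86 and Cd52 (r = 0.99, 0.98 and 0.98), and for Gsdmd Nckap1l, Slfn8 and Gngt2 (r = 0.99, 0.99 and 0.98). Casp4 was closest to Casp12, Pea15a and S100a4 (r = 0.98 each). Il1b was closest to Ms4a7, Wfdc17 and Bcl2a1d (r = 0.99, 0.98 and 0.98) and Il33 to Marcks, Nnmt and Osmr (r = 0.98 each). Il1rn was closest to Treml4, Gpr84 and Fpr2 (r = 0.96, 0.95 and 0.95), of which Gpr84 and Fpr2 are receptors of myeloid cells. Pycard was closest to Cenpu, Batf3 and Cenpp (r = 0.95, 0.94 and 0.94). Il18 was closest to Cd47, Rap1b and Serinc3 (r = 0.96, 0.96 and 0.95), and Nlrp3 to 1700123K08Rik, Zfp692 and Rgs11 (r = 0.95, 0.94 and 0.93).

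A list of 54 other genes of the pathway was read beside the members. Of these, 50 had a probe and 42 were tested, and none was called in any comparison. Il36a, Il36b, Il36g and Il36rn had no matched probe, and the ligands Il1a and Il1f10 were too dim to be tested. In Fcgr2b-/- against wild-type, 30 of the 42 were higher (median 0.46), beside 43.4% of all probes. At an unadjusted limma p under 0.05, 7 were higher, beside 2.64% of all probes, and none was lower, beside 253 of 35628 probes. At the same level 1 was lower in double-deficient against Fcgr2b-/- (1.16% of all probes). In double-deficient against wild-type 0 differed, where 106 of 35628 probes were higher and 45 lower. In Sting gt/gt against wild-type 1 was lower (682 of 35628 probes). For the interaction 1 was positive and 3 were negative (1285 and 949 of 35628 probes). By role, 11 of 14 sensors and their partners, 2 of 5 proteases and pore proteins, 6 of 7 receptors and decoys, 3 of 7 signaling proteins and 8 of 9 target genes were higher, beside 43.4% of all probes, and the roles were not tested against each other.

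Several genes named here were dim, and their changes include readings below detection. The longest changes in this comparison belonged to Mefv, which codes for the sensor pyrin (2.97, SE 0.95, limma adjusted p = 0.957, above background on 3 Fcgr2b-/- and 2 wild-type arrays), and to the monocyte chemokine Ccl2 (2.86, SE 1.02, limma adjusted p = 0.9996). Ccl2 was -0.47 to 4.12 in Fcgr2b-/- and -2.34 to 0.28 in wild-type, so the groups overlapped. The lowest were the sensors Nlrp12 (-0.69, above background on 2 and 3 arrays) and Nlrp6 (-0.64). In double-deficient against Fcgr2b-/-, 28 of 42 were lower (median -0.39), beside 42.5% of all probes. The lowest were the acute-phase genes Saa3 (-2.22, SE 1.19, above background on 1 double-deficient and 2 Fcgr2b-/- arrays) and Lcn2 (-1.96, SE 0.85, limma adjusted p = 0.9999). Lcn2, a neutrophil and injured-tubule protein, was -1.01 to 0.15 in double-deficient and -0.90 to 3.96 in Fcgr2b-/- kidneys. Nlrp6 (0.83) and Nek7, a partner of NLRP3 (0.53), were the highest.

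In double-deficient against wild-type, Mefv (1.29) and Ccl2 (1.04) were again highest and the decoy Il18bp (-0.42) and Naip6 (-0.31, above background on 2 and 1 arrays) lowest. In Sting gt/gt against wild-type, Gsdme, a pore protein opened by caspase-3, was 0.83 lower with no overlap between groups, at -0.082 to 1.18 against 1.24 to 1.92 (log2 change -0.83, SE 0.30, limma adjusted p = 0.732), and 1.45% of all probes were wholly lower there. Ninj1, which ruptures the membrane of dying cells, followed at -0.61, and Ptgs2 (1.37, above background on 2 and 1 arrays) and the DNA sensor Aim2 (1.21, on 4 and 2 arrays) were highest. In the interaction, Nlrp6 (1.34) and Gsdme (1.10) were highest and Saa3 (-3.03) and Lcn2 (-2.29) lowest, with limma adjusted p = 0.661 for each.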

How the data were processed

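Kidney RNA (100 ng per mouse) was hybridized to 16 one-color arrays. The authors deposited scanner files from Agilent Feature Extraction 11.0 with processed spot intensities, background-subtracted and not scaled between arrays, and a table of log2 values whose making is not given in the sources used here. Values are log2 intensities less each array's 75th percentile, with spots of a probe averaged and without control or outlier spots (Python 3.11.15). Probes well above background on at least 4 arrays were tested by limma 3.58.1 (R 4.3.3), with 1 mean per genotype over all 16 arrays, and called at a 2-fold change or more with p under 0.05 after Benjamini-Hochberg adjustment. Names came from RefSeq (GRCm38.p6), which matched 58.3% of probes. On simulated arrays of 35615 probes, the test recovered 85% of probes changed by 3 log2 units in Fcgr2b-/- against wild-type and 58% of those changed by 2. There the probes varied independently, with normal noise and a single spread per probe in all groups. The real groups differed in spread (SD of Il1rn 2.45 in Fcgr2b-/- and 0.54 in wild-type), so these shares need not hold for the members.

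All 9 members and, per comparison, the 2 highest and 2 lowest pathway genes are named, with the 3 genes most like each member. Members and lists were chosen with earlier results of these data known. Alternatives were other scalings, normexp (offset 50), the authors' table, other filters and fits, slide, replicate number and animal label as blocks, the methods' Mann-Whitney test, and each array left out.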

Additional observations from a re-analysis of the deposited data

Results flagged for a closer look

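In 2 of 36 groups of 4 kidneys, 1 kidney stood apart by Dixon's test, which chance alone gives in about 1 in 20 groups. Gsdmd in Sting gt/gt replicate 1 was -0.18, the highest of its group, and the nearest of the others was -1.29. Il1b in wild-type replicate 1 was -0.062, again the highest of its group, and the nearest of the others was -2.51. In both kidneys the fat markers were also the highest of their group, at 1.14 and 2.31, and their part in these values was not tested.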

How the results depend on the processing

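No member was called under most alternatives. Exceptions were Il1rn without Fcgr2b-/- replicate 2 or 3 (0 to 1 members called in Fcgr2b-/- against wild-type over the arrays left out) and, for both Fcgr2b-deficient groups against both others, 1 member with quantile normalization or median scaling and 0 to 1 over the arrays left out. That last contrast was formed after the Il1rn values were seen, and its calls are a description. So are the Il1rn calls without Fcgr2b-/- replicate 2 or 3, which held the lowest readings of that group. By the unadjusted Mann-Whitney test 1 member was called in Fcgr2b-/- against wild-type (144 of 35628 probes) and 1 in double-deficient against wild-type (63 of 35628). The member was Il1rn in both, and its wild-type readings were all below detection. In the wider contrast 2 members and 1 pathway gene were called (211 of 35628). None was called after adjustment. With 4 mice a group this test cannot give a p under 0.0286. Adjusted over all probes, calls between 2 genotypes were then out of reach unless most probes reached that p. The cause of these differences was not tested. Readings below detection limit Il1rn, Nlrp3 and the dim pathway genes Saa3, Mefv, Aim2, Ptgs2, Naip6 and Nlrp12.

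Of all probes, 18 were called in Fcgr2b-/- against wild-type. This count became 3 with normexp, 7 with the authors' table, 0 with probes above background on all arrays, 0 in a fit of the groups compared, 67 within slide 1, 0 within slide 2, 3 with the animal label as a block, 8 with Xist as a covariate (chosen after seeing the data), 144 and 0 by the Mann-Whitney test without and with adjustment, and 0 to 37 over the arrays left out. It was 0 without wild-type replicate 2, 3 or 4 or Fcgr2b-/- replicate 4, and 37 without Fcgr2b-/- replicate 2. In double-deficient against Fcgr2b-/-, where 0 were called, the unadjusted Mann-Whitney test called 41. In double-deficient against wild-type (0 called) there was 1 with normexp, 1 with probes above background on all arrays, 3 in a fit of the groups compared, 2 within slide 1, 2 within slide 2, 63 by the unadjusted Mann-Whitney test and 0 to 1 over the arrays left out. In Sting gt/gt against wild-type (0 called) there were 45 within slide 1 and 127 by that test. The wider contrast called 24, and 13 with normexp, 6 with probes above background on all arrays, 0 within slide 1, 4 within slide 2, 8 with the animal label as a block, 211 and 0 by the Mann-Whitney test without and with adjustment, and 20 to 30 over the arrays left out.

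Some values changed sign, and the cause was not tested. Within a slide each genotype had 1 to 3 arrays. In Fcgr2b-/- against wild-type the values that changed sign were Pycard within slide 2 (-0.58) and Il18 within slide 1 (-0.37). In double-deficient against Fcgr2b-/-, within slide 2, they were Nlrp3 (-0.41), Pycard (0.28), Casp1 (0.43), Casp4 (0.81), Gsdmd (0.23), Il18 (0.39) and Il33 (0.67), and Nlrp3 with the animal label as a block (-0.078). In Sting gt/gt against wild-type they were Pycard within slide 1 (0.12), Il1b with median scaling (-0.023) and within slide 2 (-0.029), Il18 within slide 2 (0.45) and Il1rn within slide 1 (0.21). Over the arrays left out, Nlrp3 ranged from -0.0084 to 0.54 in Fcgr2b-/- against wild-type and from -0.077 to 0.44 in double-deficient against Fcgr2b-/-, and Il18 from -0.081 to 0.53, from -0.43 to 0.12 and, in Sting gt/gt against wild-type, from -0.54 to 0.058. In the latter comparison Il1b ranged from -0.33 to 0.89 and Il1rn from -0.52 to 0.053. Scaling by the array median moved the median change of all probes to -0.21 in Fcgr2b-/- against wild-type, -0.11 in double-deficient against wild-type, -0.24 in Sting gt/gt against wild-type and 0.32 in the interaction.

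Replicate numbers did not pair the kidneys consistently: same-numbered kidneys deviated from their group means with correlations from -0.60 to 0.69, and 2, 2, 0 and 1 of the 4 kidneys numbered 1 to 4 were most like one of their own number. With the replicate number as a block, the Il1rn change in Fcgr2b-/- against wild-type stayed at 4.33 (limma adjusted p = 0.111), and no member was called. The Il1b change there stayed at 3.20, with an SE of 0.56 in place of 0.82 (limma adjusted p = 0.103).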
